A study of Mus musculus with 28 samples.

Results

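Myeloid C-type lectin receptors are pattern-recognition receptors of macrophages, monocytes, neutrophils and dendritic cells, and 8 of their genes were examined in mouse B-cell lymphomas before and after a DNA-damaging drug. The genes were Clec4a2, Clec4a3, Clec4d, Clec4e, Clec4n, Clec5a, Clec7a and Clec12a. They were chosen by name with earlier results of these arrays known, and their levels and changes after treatment were part of that choice. The contrast of ADR with untreated cultures is therefore described for these genes without a test. Of the 8 genes, 7 had a probe set assigned to 1 gene, among 18193 genes measured in this way. Clec12a (MICL), an inhibitory receptor, had none and has no value here.

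The arrays came from 14 primary lymphomas, each as 1 untreated culture and 1 culture given Adriamycin (doxorubicin, ADR) at 0.05 µg/ml for 5 days. All 28 cultures carried the Emu-myc transgene on a C57BL/6 background, in which an immunoglobulin enhancer drives Myc in B-lineage cells. All had also been transduced with a Bcl2 retrovirus (MSCVpuro) and selected with puromycin. Bcl2 protects cells from apoptosis so that the drug can lead to senescence, which was not measured here. The lymph node cells grew on irradiated NIH 3T3 fibroblasts, and the labels name no step that would remove the feeder cells or the host's own myeloid cells before RNA was made. Descriptions mark the arrays of 11 lymphomas as a reanalysis of an earlier series, while those of 5043, 9583 and 9584 carry no such mark. Each lymphoma counts as 1 replicate, and the labels do not say how many mice gave rise to them.

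C-type lectin receptors bind sugars or lipids on fungi, bacteria and dead cells through a carbohydrate-recognition fold outside the cell. Activating members signal through an immunoreceptor tyrosine-based activation motif, either in their own tail or in the partner chains Fcer1g and Tyrobp, to the kinase Syk and on to the Card9, Bcl10 and Malt1 complex. Inhibitory members carry an inhibitory motif that recruits the phosphatases Ptpn6 and Ptpn11. The receptors are classed as myeloid genes, so Adgre1, a macrophage marker gene, and Col1a2, a collagen gene of fibroblasts, were read beside them. In bulk RNA, fewer or more cells of a type cannot be told apart from less or more RNA per cell.

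In these cultures the B-lineage markers were abundant. The mean of 10 measured markers lay between 8.66 and 10.1 on the log2 scale in untreated cultures, and 5 of the 10 fell after ADR. In these counts a rise or fall is a limma adjusted p under 0.05, met upward by 15.3% and downward by 13.4% of all genes. Macrophage markers were also present: the mean of 20 markers lay between 5.51 and 8.47 in untreated and between 6.60 and 9.41 in ADR cultures, and 15 of 20 rose, Adgre1 among them. The 5 others, C1qa, C1qb, C1qc, Cx3cr1 and Cd163, did not pass the test, with mean changes of 0.04 (Cd163) to 0.87 (C1qb). Granulocyte markers averaged 3.93 to 4.97 and then 4.15 to 5.86, with Mmp8, S100a8 and Camp higher among 10 measured while the other 7, with untreated means of 3.35 (S100a9) to 5.24 (Csf3r), did not pass the test. Csf3r had a change of 0.73 ± 0.32 (SE), and Elane, Mpo, Ngp, Ltf, Cxcr2 and S100a9 had changes of -0.06 to 0.07. Fibroblast markers averaged 4.57 to 5.55 and then 5.02 to 9.16, and 14 of 15 rose. The part of these cells in the receptor values was not tested beyond the comparisons with Adgre1 and Col1a2 given here. The ADR array of lymphoma 1570 had the most unequal 3′ and 5′ signals, at 0.92 for both actin and Gapdh.

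All 7 measured receptor genes were higher on average after ADR. Their mean changes ranged from 1.16 for Clec5a to 2.90 for Clec4d on the log2 scale, with a median of 2.22, where the median change of all 18193 genes was -0.0011. Of 98 receptor values, 1 per gene and lymphoma, 91 were above 0 and 7 below, and 69 were at least 2-fold up. The mean change reached 2-fold in all 7, and in 3.32% of all genes. Clec4d, Clec4n and Clec5a were higher in every lymphoma, as were 2.87% of all genes. Since the genes were chosen on this contrast, these shares are given for scale only.

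**Figure D1:**
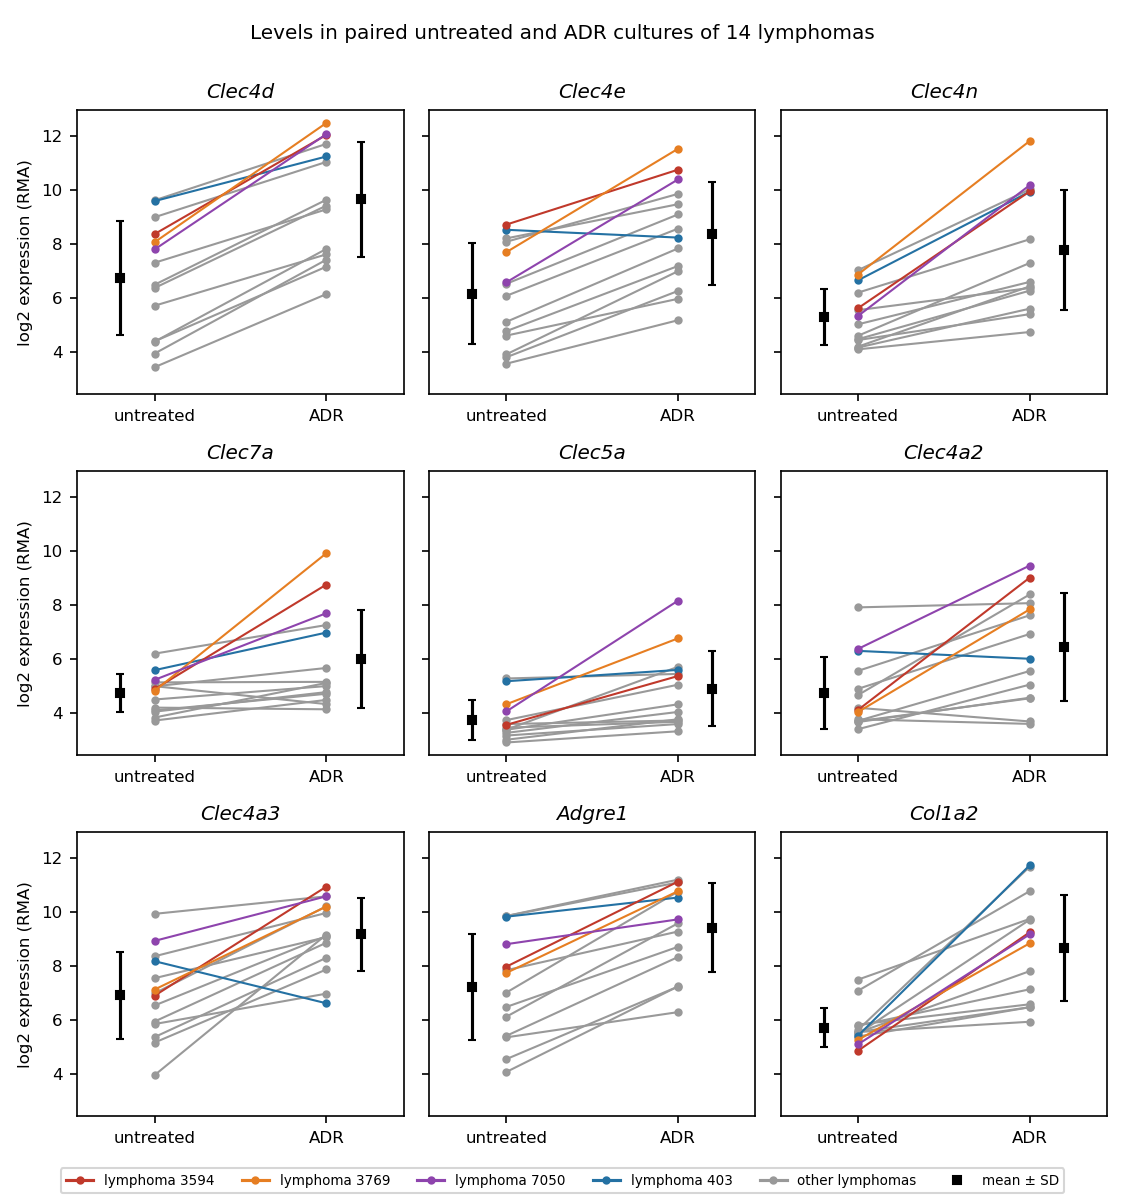
Log2 expression (RMA) of the 7 receptor genes, Adgre1 and Col1a2 in untreated and ADR cultures, with a line for each of the 14 lymphomas and black squares with bars for the mean ± SD. Clec4d rises in all 14 lymphomas by 1.65 to 4.41, while Clec4a3 falls in lymphoma 403 and Clec7a stays within 1 log2 unit of its start in 8 lymphomas.

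The receptors that pair with the Fc receptor gamma chain, Clec4d, Clec4e and Clec4n, lie side by side on chromosome 6. Upstream windows of the receptor genes were read because the myeloid transcription factor PU.1 (Spi1) was measured on the same arrays. No window of Clec4n was read. The 250 bases before the RefSeq start of 4 genes, each with a single listed start, are shown 5′ to 3′ in gene orientation (GRCm38.p6). Capitals mark GAGGAA, the core that PU.1 binds, or TTCCTC, its reverse complement.
Clec4d, chr6:123261857-123262106, plus strand: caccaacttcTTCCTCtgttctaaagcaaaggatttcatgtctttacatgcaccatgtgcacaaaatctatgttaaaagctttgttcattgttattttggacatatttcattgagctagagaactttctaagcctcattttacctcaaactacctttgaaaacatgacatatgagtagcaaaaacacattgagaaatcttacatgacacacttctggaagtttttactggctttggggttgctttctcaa
Clec4e, chr6:123289872-123290121, minus strand: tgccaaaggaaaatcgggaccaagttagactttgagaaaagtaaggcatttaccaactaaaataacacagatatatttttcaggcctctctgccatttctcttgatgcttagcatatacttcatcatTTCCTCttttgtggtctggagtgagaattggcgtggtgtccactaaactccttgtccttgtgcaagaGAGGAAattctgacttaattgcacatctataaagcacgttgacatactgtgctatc
Clec5a, chr6:40585806-40586055, minus strand: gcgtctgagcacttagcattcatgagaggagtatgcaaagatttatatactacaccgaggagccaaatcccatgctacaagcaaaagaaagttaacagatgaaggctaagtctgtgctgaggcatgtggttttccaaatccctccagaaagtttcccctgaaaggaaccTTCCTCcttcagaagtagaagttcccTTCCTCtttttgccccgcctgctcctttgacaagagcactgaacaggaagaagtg
Clec4a2, chr6:123122440-123122689, plus strand: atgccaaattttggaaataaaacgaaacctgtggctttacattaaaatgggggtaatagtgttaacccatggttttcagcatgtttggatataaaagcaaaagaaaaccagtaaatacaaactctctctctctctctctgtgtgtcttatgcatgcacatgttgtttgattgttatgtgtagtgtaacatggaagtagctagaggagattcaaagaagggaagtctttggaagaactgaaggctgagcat
Clec4d has 1 match, 240 bases before the start. Clec4e has 2, at 123 and 56 bases, and Clec5a has 2, at 81 and 55 bases. Clec4a2 has none in this window. Of the 7 receptor genes with a RefSeq window, Clec12a included, 6 had a match, in 7 of 9 windows. The windows of Clec7a overlap and hold the same match, and those of Clec4a3 overlap as well, so the 9 windows are not independent. Of all 32851 windows of the same length, 23.3% had a match on either strand. This is a share of windows, so it stands beside 7 of 9 only, and a share per gene over all genes was not taken. The C/EBP motif TTNNGNAA stood in 5 of the 9 windows and in 36.8% of all, and the AP-1 motif TGANTCA in 1 of 9 and 6.75% of all. A match describes these letters only.

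Clec4d encodes MCL (Dectin-3), which forms a complex with Mincle and the Fc receptor gamma chain. Its untreated level had a lowest value of 3.44, a median of 6.89 and a highest of 9.61, and its ADR level 6.14, 9.52 and 12.5. In 7 of 14 ADR arrays it stood above every untreated array, and the groups overlapped. Within lymphomas the change was 2.90 ± 0.89 (SD, n = 14), a 7.44-fold rise in the geometric mean, and it ran from 1.65 in 403 to 4.41 in 3769. Its SD was the smallest of the 7, and it was the receptor gene with the largest change in 5 lymphomas. Clec4d rose at least 2-fold in all 14.

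Clec4e encodes Mincle, the receptor for mycobacterial cord factor and for a nuclear protein released by dying cells. It ran from 3.56 through a median of 6.30 to 8.71 in untreated cultures and from 5.17 through 8.39 to 11.5 after ADR. The groups overlapped, with 6 ADR arrays above every untreated one. The change was 2.22 ± 1.07 (SD, n = 14), or 4.66-fold, and was positive in 13 lymphomas. Lymphoma 403 was the exception, at -0.29. A dimmer probe set of Clec4e gave 1.34 ± 1.26 and was higher in 11 of 14. Clec4d and Clec4e had nearly parallel levels: r was 0.96 over the 14 untreated arrays, 0.94 over the ADR arrays and 0.81 between their changes.

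Clec4n encodes Dectin-2, which binds fungal mannans. In untreated cultures it ran from 4.10 through a median of 5.17 to 7.02, and after ADR from 4.74 through 6.94 to 11.8. In 7 ADR arrays it was above all untreated arrays, and the remaining ones overlapped with them. The change was 2.46 ± 1.44 (SD, n = 14), or 5.51-fold, from 0.64 in 2949 to 4.94 in 3769. A further probe set of Clec4n gave 2.67 ± 1.75 and was higher in 13 lymphomas. The probe sets used for Clec4d and Clec4n are of a design that may read closely related transcripts too. The ADR levels of Clec4n spread more widely than the untreated ones, with SDs of 2.21 and 1.04.

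Clec7a encodes Dectin-1, the beta-glucan receptor, whose own tail recruits Syk. Its untreated values ran from 3.72 through a median of 4.85 to 6.19, and its ADR values from 4.14 through 5.13 to 9.91. The medians were close, and 5 ADR arrays lay above every untreated array. The change was 1.27 ± 1.56 (SD, n = 14), with an SD above its mean. It reached 5.09 in 3769, 3.87 in 3594 and 2.47 in 7050. In the other 11 lymphomas it lay between -0.66 and 1.39, with values below 0 in 2581 and 2949.

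Clec5a encodes MDL-1, which signals through Tyrobp (DAP12) and Hcst (DAP10). It was low in untreated cultures, from 2.91 through a median of 3.51 to 5.27, and ran from 3.32 through 4.68 to 8.15 after ADR. The groups overlapped, with 6 ADR arrays above every untreated one. The change of 1.16 ± 1.14 (SD, n = 14) was positive in every lymphoma but under 2-fold in 9 of them. The largest change of Clec5a was 4.10 in 7050, followed by 2.44 in 3769 and 2.32 in 5766. Of the 7 receptor genes it changed least in 5 lymphomas. Changes of values near the low end of the scale are compressed on these arrays.

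Clec4a2 encodes DCIR, a receptor with an inhibitory motif, and Clec4a3 is a close relative of it (Dcir3). Clec4a2 ran from 3.40 through a median of 4.15 to 7.90 in untreated cultures and from 3.60 through 6.46 to 9.45 after ADR, with overlapping groups and 4 ADR arrays above every untreated one. It was higher in 11 lymphomas, with a change of 1.71 ± 1.69 (SD, n = 14). It rose by 4.89 in 3594, and in 403, 1570 and 2949 it stood at -0.29, -0.51 and -0.17. Its other probe set gave 0.67 ± 1.12 and was higher in 9 of 14, and a probe set shared by Clec4b1 and Clec4a2 gave 1.55 ± 1.28 and was higher in 13. The probe sets thus differed in size and in the number of lymphomas with a rise.

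Clec4a3 ran from 3.96 through a median of 6.94 to 9.92 in untreated cultures and from 6.61 through 9.13 to 10.9 after ADR, again with overlap and 6 ADR arrays above every untreated one. It was higher in 13 lymphomas, with a change of 2.26 ± 1.62 (SD, n = 14). Its extremes were the widest of the 7, from -1.56 in 403, where it went from 8.17 to 6.61, to 5.20 in 1467, where it went from 3.96 to 9.15. Untreated levels of Clec4a2 and Clec4a3 had r = 0.91 over the 14 lymphomas, and their changes had r = 0.50.

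**Figure D2:**
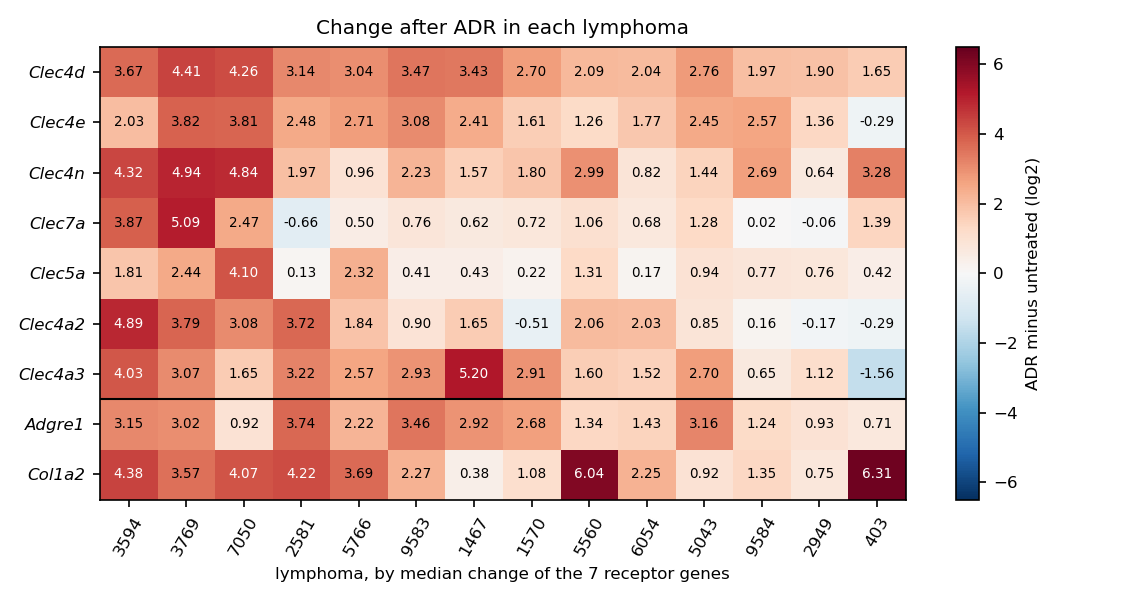
Change after ADR (log2, ADR minus untreated) of each receptor gene, Adgre1 and Col1a2 in each of the 14 lymphomas, ordered by the median change of the 7 receptor genes. The 3 columns at the left, 3594, 3769 and 7050, hold values of 1.65 to 5.09 for the receptor genes, and column 403 at the right combines 3 values below 0 with the largest Col1a2 change, 6.31.

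The lymphomas differed in how the receptor genes moved. In 10 of 14 lymphomas all 7 genes were higher. The exceptions were 403 (4 of 7), 2949 (5 of 7), 1570 and 2581 (6 of 7 each). Lymphomas 3594, 3769 and 7050 had the largest median changes, at 3.87, 3.82 and 3.81, and the next was 2581 at 2.48. Lymphoma 5560 also had all 7 genes at least 2-fold up, with a median of 1.60.

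In 3594, 3769 and 7050, which were picked on these values, the mean change of Clec7a was 3.81, and in the other 11 it was 0.57 ± 0.61 (SD). The corresponding means were 4.70 and 1.85 for Clec4n, 4.11 and 2.56 for Clec4d, 3.92 and 1.11 for Clec4a2, and 2.78 and 0.72 for Clec5a. For Clec4e they were 3.22 and 1.95 and for Clec4a3 2.92 and 2.08, where the Clec4a3 change of 1.65 in 7050 lay below the mean of the 11. The values of these 3 lymphomas lay apart from the other 11 for Clec4d, Clec4n and Clec7a. Adgre1 changed by a mean of 2.36 in the 3 and 2.17 in the 11, and its 3 values were 3.15, 3.02 and 0.92. The granulocyte list mean changed by 0.90, 0.96 and 1.35 in 3594, 3769 and 7050, and by 0.10 to 0.72 in the other 11. Over all lymphomas its genes changed unequally, with Mmp8 at 2.51, S100a8 at 2.08, Csf3r at 0.73 and Camp at 0.21. Elane, Mpo, Ngp, Ltf, Cxcr2 and S100a9 stood at -0.06 to 0.07, so the list mean does not stand for most of its genes. The macrophage list mean changed by 1.92, 2.01 and 1.14, within the range of the others, 0.45 to 2.83. Col1a2 changed by a mean of 4.01 in the 3 and 2.66 ± 2.11 (SD) in the 11. The fibroblast list mean changed by 2.94, 2.71 and 2.02, within the range of the others, -0.05 to 4.16. The part of granulocytes, macrophages or fibroblasts in the receptor values of these lymphomas was not tested.

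**Figure D3:**
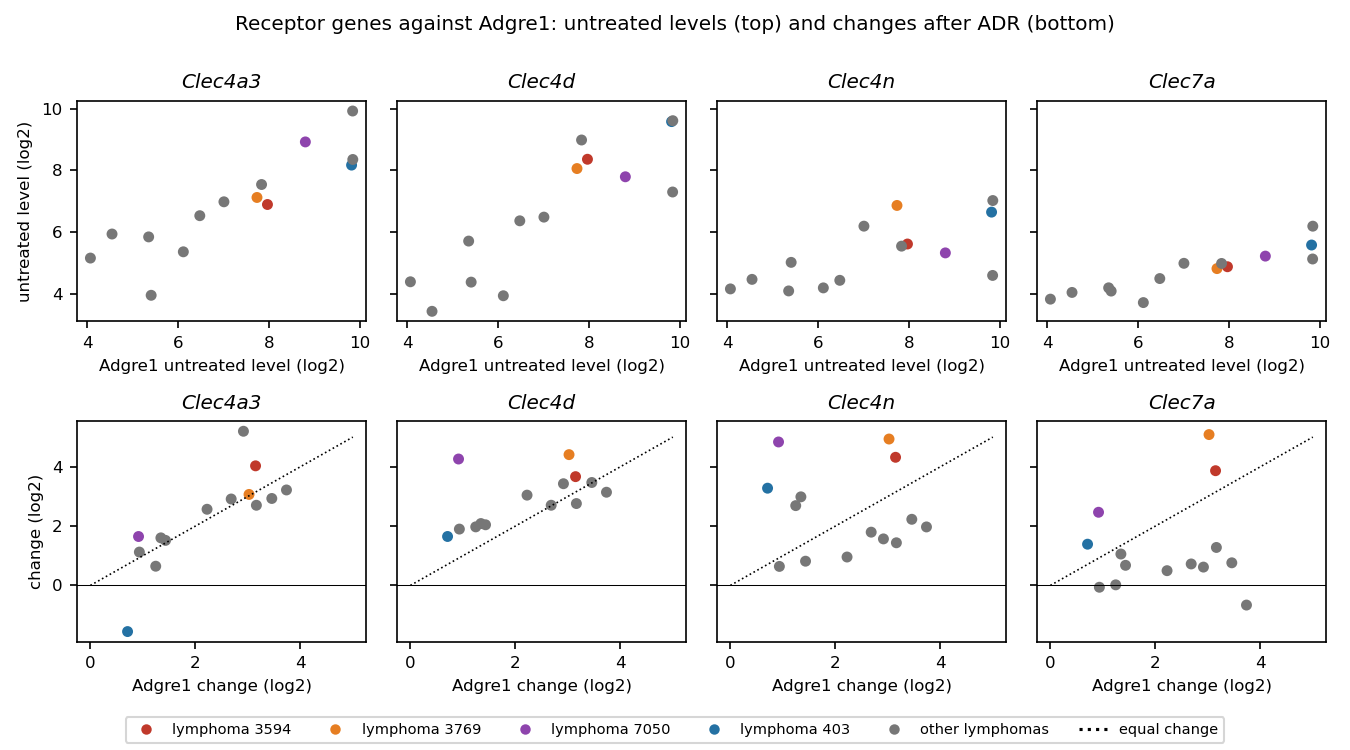
Clec4a3, Clec4d, Clec4n and Clec7a against Adgre1 in the 14 lymphomas, as untreated log2 levels (top) and as changes after ADR (bottom), where the dotted line marks equal changes. Untreated levels rise with Adgre1 for all 4 genes (r of 0.66 to 0.90). The changes of Clec4n and Clec7a hardly follow those of Adgre1 (r of -0.03 and 0.14, or 0.31 and 0.29 without 403 and 7050).

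Adgre1 ran from 4.07 through a median of 7.37 to 9.84 in untreated cultures and from 6.29 through 9.64 to 11.2 after ADR, a change of 2.21 ± 1.07 (SD, n = 14) that was positive in every lymphoma. In untreated cultures all 7 receptor genes were higher where Adgre1 was higher, with r over the 14 lymphomas of 0.90 for Clec7a, 0.88 for Clec4a3 and Clec4d, 0.84 for Clec4e, 0.81 for Clec4a2, 0.66 for Clec4n and 0.51 for Clec5a. These are descriptions over arrays that share the same host and culture conditions. Over the 14 ADR arrays r with Adgre1 was 0.83 for Clec4a2, 0.80 for Clec4e, 0.77 for Clec4n and 0.76 for Clec4d. For Clec4a3, Clec7a and Clec5a it was 0.61, 0.58 and 0.35. The changes after ADR followed the change of Adgre1 less closely than untreated levels followed its level. Clec4a3 had r = 0.80, Clec4d 0.55, Clec4e 0.42, Clec4a2 0.40, Clec7a 0.14, Clec4n -0.03 and Clec5a -0.20. Without 403 and 7050, the 2 lymphomas farthest from the median change of Adgre1, Clec4d had r = 0.80 and Clec4a3 0.78. Clec4e then had r = 0.56, Clec4a2 0.45, Clec4n 0.31, Clec7a 0.29 and Clec5a 0.003.

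Set against Adgre1 lymphoma by lymphoma, Clec4d rose more in 12 of 14, by a mean of 0.69 ± 0.94 (SD). Clec4a3 and Clec4e differed from Adgre1 by 0.05 ± 1.00 and 0.01 ± 1.15. Clec4n differed by 0.25 ± 1.82 and exceeded Adgre1 in 6 lymphomas, and without 7050 its mean difference was -0.03. None of these 3 differences kept its sign under every lymphoma left out. Clec4a2 fell short of Adgre1 on average, at -0.49 ± 1.59, as did Clec7a at -0.94 ± 1.77 and Clec5a at -1.05 ± 1.71. In 7050 Adgre1 rose by 0.92 and all 7 receptor genes rose more, whereas in 2581 and 5043, with Adgre1 changes of 3.74 and 3.16, none did.

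Col1a2 ran from 4.86 through a median of 5.54 to 7.49 in untreated cultures and from 5.93 through 9.0 to 11.7 after ADR, a change of 2.95 ± 1.95 (SD, n = 14). Its largest changes were 6.31 in 403 and 6.04 in 5560. In 403 Clec4a2, Clec4a3 and Clec4e were below their untreated level while Clec4n rose by 3.28. Over the 14 lymphomas the receptor changes had r with the Col1a2 change of 0.55 for Clec4n, 0.41 for Clec4a2, 0.32 for Clec5a and Clec7a, 0.02 for Clec4d, -0.26 for Clec4e and -0.38 for Clec4a3. Without 403 and 5560 the same values were 0.59, 0.84, 0.58 and 0.46, 0.59, 0.49 and 0.08. Leaving out these 2 lymphomas thus turned the sign for Clec4e and Clec4a3 and raised r for Clec4a2 and Clec4d. Untreated levels of the receptor genes had r with Col1a2 of -0.20 to 0.26, and ADR levels had r of 0.12 to 0.73.

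Among themselves, the 21 pairs of receptor genes had r of 0.29 to 0.96 between untreated levels (median 0.70) and -0.04 to 0.81 between changes (median 0.56). The changes of Clec4n and Clec7a had r = 0.80 and those of Clec4a3 and Clec4n -0.04. Without 3769 and 7050, the pair of Clec4d and Clec4n went from 0.56 to 0.13, that of Clec4d and Clec5a from 0.62 to 0.22, that of Clec4d and Clec7a from 0.62 to 0.31 and that of Clec4n and Clec5a from 0.63 to 0.20.

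The genes whose pattern over all 28 arrays was most like each receptor gene differed between receptors. These arrays share the ADR contrast, so a gene that rises after ADR tends to score high. For Clec4d they were Pilra (r = 0.95), Acod1 (0.94) and Adam8 (0.94), and for Clec4e Pilra (0.94), Pilrb1 (0.92) and the macrophage growth factor receptor gene Csf1r (0.92). For Clec4n they were Hif1a (0.91), Stx3 (0.90) and the interleukin-1 receptor antagonist Il1rn (0.90). For Clec7a they were F7 (0.94), Cd200r4 (0.91) and Alas1 (0.89), and for Clec5a Cd300lf (0.88), Alas1 (0.86) and Atp6v1c1 (0.85). For Clec4a2 they were Pik3r5, Igsf6 and Aoah (0.91 each), and for Clec4a3 Sirpa (0.90), the integrin gene Itgam (0.87) and Cyth4 (0.87). Among 18186 other genes Adgre1 ranked 12 for Clec4a3, 22 for Clec4e, 25 for Clec4a2, 43 for Clec4d, 267 for Clec4n, 393 for Clec7a and 950 for Clec5a.

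The signalling partners were not used in the choice of the receptor genes and were tested in a paired limma fit over all genes. Of 20 listed partners 16 were measured, 7 were higher and 0 lower at an adjusted p under 0.05, with a median change of 0.17. Of all 18193 genes, 15.3% were higher and 13.4% lower. The count of higher partners was 5 with the largest-variance probe sets and 5 without the lymphoma block. Which cells the partner RNA came from was not tested. Tyrobp (DAP12), the partner chain of Clec5a, went from 9.90 ± 1.20 to 11.2 ± 1.35 (SD, n = 14 each) and rose by 1.32 ± 0.17 (SE, limma adjusted p = 4.02e-05), in 13 of 14 lymphomas. Fcer1g, the Fc receptor gamma chain, rose by 1.14 ± 0.28 (limma adjusted p = 0.00517), in 11 of 14. Without the lymphoma block Fcer1g had an adjusted p of 0.218, and without 3594, 3769 and 7050 it changed by 0.92 with an adjusted p of 0.0555. Hcst, the other partner chain of Clec5a, had a change of 0.07 ± 0.14 (limma adjusted p = 0.767).

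The kinase Syk rose by 0.83 ± 0.15 (SE, limma adjusted p = 4.52e-04) on its brightest probe set, in 13 of 14 lymphomas. Its other 3 probe sets changed by 0.22, -0.19 and -0.08, so the rise of Syk holds for the brightest one. The direction is -0.19 (limma adjusted p = 0.458) on the probe set with the largest variance. Prkcd, the kinase that activates Card9, rose by 0.66 ± 0.13, the exchange factor Vav1 by 0.52 ± 0.13 and Src by 0.61 ± 0.15 on its brightest probe set. A dimmer probe set of Prkcd changed by 0.30 and was higher in 11 of 14 lymphomas, and a dimmer one of Vav1 changed by 0.54. The other probe set of Src, at a similar untreated mean (4.08 beside 4.17), changed by 0.17 and was higher in 8 of 14 lymphomas. Bcl10 and Malt1 of the Card9 complex stood at 0.16 ± 0.06 and -0.13 ± 0.09 (limma adjusted p = 0.0589 and 0.336). Btk, Plcg2, Vav3 and Fgr did not pass the test, with changes of -0.01, -0.15, 0.09 and 0.54. Of the inhibitory arm, the phosphatase gene Ptpn11 rose by 0.17 ± 0.06, whereas Ptpn6 and Inpp5d had changes of 0.17 ± 0.18 and 0.05 ± 0.12 and did not pass the test. Card9 and Lyn had no probe set assigned to 1 gene and have no value here.

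**Figure D4:**
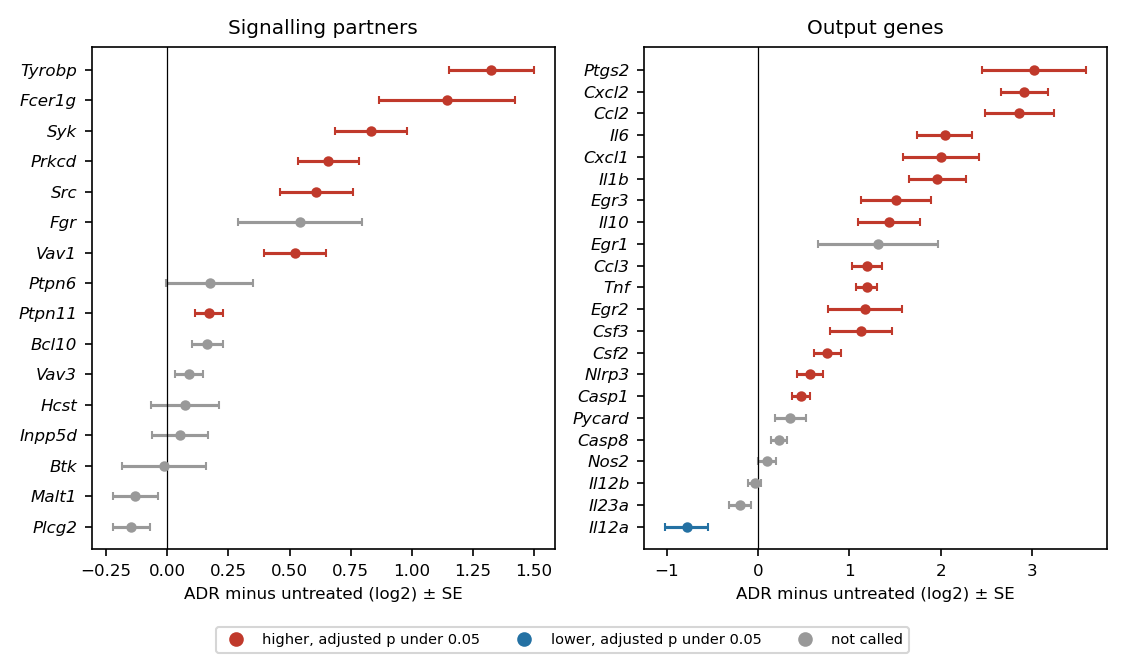
Change after ADR (log2, limma estimate ± SE, n = 14 pairs) of the signalling partners (left) and of genes listed as outputs of receptor signalling (right), with red for higher, blue for lower and grey for an adjusted p of 0.05 or more. Tyrobp and Fcer1g lead the partners at 1.32 and 1.14, Ptgs2 and Cxcl2 lead the output genes at 3.02 and 2.91, and Il12a is the gene below 0 that passed the test.

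Genes listed as outputs of activating receptor signalling in myeloid cells, called induced genes here, were read next. The name labels the list, which also holds Pycard, Casp1 and Casp8, and does not mark each gene as a known target. Of 22 measured, 15 were higher (68.2%) and 1 lower (4.55%), beside 15.3% and 13.4% of all genes, with a median change of 1.18. The prostaglandin synthase gene Ptgs2 rose by 3.02 ± 0.57 (SE), in 12 of 14 lymphomas, and the neutrophil chemokine gene Cxcl2 by 2.91 ± 0.26, in 14 of 14. The monocyte chemokine gene Ccl2 rose by 2.86 ± 0.38 and the cytokine gene Il6 by 2.04 ± 0.30, and Cxcl1 by 2.0 ± 0.42. Their limma adjusted p-values ran from 2.88e-06 to 0.00188. Il12a fell by 0.78 on the log2 scale (limma adjusted p = 0.0206), in 12 of 14 lymphomas. Egr1, Pycard, Casp8, Nos2, Il12b and Il23a did not pass the test, with changes of 1.31, 0.35, 0.23, 0.10, -0.04 and -0.20. Several of these genes are also made by fibroblasts, whose markers rose on the same arrays, and the part of the receptors in their rise was not tested.

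Of 12 measured myeloid transcription factors, 6 were higher (50%) and 1 lower (8.33%), beside 15.3% and 13.4% of all genes, with a median change of 0.29. Klf4 rose by 2.62 ± 0.39 (SE), Cebpd by 1.71 ± 0.17, Maf by 1.65 ± 0.24 and Cebpb by 1.37 ± 0.13, with limma adjusted p-values of 4.62e-06 to 1.11e-04. Spi1, which encodes PU.1, rose by 0.74 ± 0.16 (limma adjusted p = 0.00209), in 13 of 14 lymphomas, from 8.98 ± 0.45 to 9.72 ± 0.52 (SD). Cebpa fell by 0.31 (limma adjusted p = 0.0473). Irf8, Runx1, Nr1h3, Batf3 and Tfec did not pass the test, with changes of -0.32, -0.12, -0.03, 0.03 and 0.13. Which cells the values of these factors came from was not tested. The count of lower calls among induced genes and factors was 2, and it was 1 when any 1 of lymphomas 403, 3594, 3769, 5043, 5766, 6054, 7050, 9583 and 9584 was left out.

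Other C-type lectin genes were read beside all genes, of which 15.3% were higher and 13.4% lower, and their shares of higher calls were near that background. Of 16 measured lectins of myeloid and dendritic cells 2 were higher (12.5%) and 0 lower, with a median of 0.05, and of 18 lectins of other cells 3 were higher (16.7%) and 2 lower (11.1%), with a median of 0.01. The list means in untreated cultures were low, at 4.17 to 4.47 and 4.78 to 5.40. Changes of dim genes are compressed on these arrays, so a small change here may reflect a gene that was hardly detected. Clec4b1, a neighbour of Clec4a2, rose by 0.38 ± 0.10 (SE, limma adjusted p = 0.00725), at a low level of 3.01 ± 0.57 and 3.39 ± 0.79 (SD). Clec2d rose by 0.35 ± 0.12, the scavenger receptor gene Colec12 by 1.16 ± 0.31, thrombomodulin (Thbd) by 0.86 ± 0.22 and Layn by 0.36 ± 0.13. Clec2i and Klrd1 fell by 0.48 and 0.23. Over both lists the count of higher calls was 5, and it was 3 when any 1 of lymphomas 2581, 3594, 6054, 7050 and 9584 was left out. The count of lower calls was 2, and it was 1 without 1467, 2581, 2949, 3594 or 5043 and 3 without 9583.

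Among the receptor genes, Clec4a3, Clec4a2, Clec4n, Clec4d and Clec4e lie in 1 stretch of chromosome 6 in RefSeq order, with Clec4a4, Clec4b1 and Clec4b2 between them. The 5 receptor genes changed by 1.71 to 2.90 and Clec4b1 by 0.38, and Clec4a4 and Clec4b2 have no value here. Clec12a and Clec7a bound another stretch of the same chromosome. Between them Clec12b, Clec1b and Clec1a had changes of -0.06 ± 0.08, 0.08 ± 0.06 and -0.07 ± 0.07 (SE, limma adjusted p = 0.629, 0.343 and 0.485), beside 1.27 for Clec7a. Untreated means of Clec1b and Clec1a were low, at 3.41 and 3.53.

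The mark of the earlier series gives a split that the choice of genes did not use. Changes after ADR in the 11 marked and 3 other lymphomas were compared by limma over all genes, with 1 gene of 18193 called (0.0055%) and 5.49% of genes at an unadjusted p under 0.05. That gene, the transporter Slc47a1, differed by 1.84 ± 0.21 (SE, limma adjusted p = 0.00589). No receptor gene was called. The largest difference was that of Clec4a2, with 2.01 in the 11 and 0.63 in the 3, a difference of 1.37 ± 0.97 (SE, limma adjusted p = 0.864). The adjusted p of the 7 ran from 0.864 to 0.984.

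Untreated levels were compared in the same way, with 0 genes called by limma at the adjusted threshold and 1084 (5.96%) at an unadjusted p under 0.05, and 1 gene called with a trended and robust variance. Clec4d stood at 7.16 ± 2.06 (SD) in the 11 and 5.21 ± 1.82 in the 3, a difference of 1.95 ± 1.21 (SE). Clec4n stood at 5.57 ± 1.02 and 4.32 ± 0.24, a difference of 1.25 ± 0.56 (SE). The limma adjusted p of the 7 receptor genes ran from 0.834 to 0.997, so no difference was detectable with 3 lymphomas in the smaller group, and the SEs leave room for differences of over 2-fold.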

How the data were processed

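Expression arrays of 14 lymphomas, each untreated and ADR-treated, gave 28 columns of log2 values for 45101 probe sets. The deposited log2 values were made by the authors with RMA and Partek 6.5, per the submitters' processing notes. This method subtracts background, brings the arrays to a common distribution and combines each probe set into 1 value, and it compresses changes of dim genes. No genome build is given in the sources used here, and array values need none.

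Probe sets were named through the platform annotation, in which 34945 had 1 gene and 932 several, and the latter were left out. The brightest probe set stood for each gene, which left 18193 genes. All columns were mapped to a sample. Changes are ADR minus untreated within a lymphoma. Tests were run in R 4.3.3 by limma 3.58.1, as a linear model with a block per lymphoma, moderated variances and Benjamini-Hochberg adjustment over all genes at a threshold of 0.05. The pairing comes from the lymphoma identifier in the labels. Deviations of both arrays of a lymphoma from their group means had r from 0.27 to 0.61 (median 0.48), although in 2949 and 6054 the partner was not the best match. The scripts were tested on simulated data. Promoter windows are RefSeq's (GRCm38.p6), and plots came from Python 3.11.15 and matplotlib 3.10.9. For arrays their number limits the precision.

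The receptor genes, gene lists, tests and naming rule were chosen with earlier results of these data known. The rule named the receptor genes, Adgre1 and Col1a2, up to 5 called genes per list with the largest change, the adaptor, kinase and Card9-complex genes, and the 3 genes most like each receptor gene. Lists of dendritic (2 higher and 1 lower of 10), mast cell (0 of 7) and T and NK cell markers (0 higher and 1 lower of 9) were also read. Other signalling genes, uncalled macrophage and granulocyte markers, uncalled induced genes and uncalled transcription factors lie outside the rule. So do chromosomal neighbours and Slc47a1, and all of these were named after their values were seen. Alternatives were other probe set rules, median centring, quantile normalization, a filter on dim genes, trended variance, no block, and lymphomas left out.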

Additional observations from a re-analysis of the deposited data

How the results depend on the processing

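Over 43 results, 721 of 777 alternative values were labelled as kept. A tested difference had to keep its side of the threshold, and its direction where called. A count had to stay of similar size, so 1933 higher genes without the block passed beside 2790. A value had to move by less than its SD between lymphomas and could cross 0. The median receptor difference from Adgre1 passed throughout, from -0.53 to 0.09. All 168 alternative values of the receptor changes stayed above 0. They reuse the arrays on which the genes were chosen, and Clec4d, Clec4n and Clec5a rose in every lymphoma, so this count is no support for the rise. Without the replicate block, in place of the paired fit, 1933 genes were higher and 1723 lower over all genes, 1 other lectin was higher and 0 lower, 0 induced genes or factors were lower, and Fcer1g lost its call (1.14, limma adjusted p = 0.218). Syk changed to -0.19 on its probe set with the largest variance and to 0.19 on the mean of its probe sets. With genes of a mean log2 of at least 5 in either group, a filter that always kept the receptor genes, 3 other lectins were higher and 1 lower, 1 induced gene or factor was lower, and 0 genes differed in change between the 11 and the 3 lymphomas. For untreated levels that comparison called 2 genes with the largest-variance probe sets and with probe set means, and 1 with median centring, the dim-gene filter or the trended variance. Without 403 and 5560 the lower calls were 1 other lectin and 1 induced gene or factor, and without 2581 and 2949 they were 1 and 0. In the 11 marked lymphomas 3 other lectins were higher and 1 induced gene or factor was lower. In the 3 others, 1 gene was higher and 0 lower over all genes, with 0 calls among partners, other lectins, induced genes and factors. Without 3594, 3769 and 7050, an alternative chosen after the data were seen, 1819 genes were higher and 1588 lower, with 1 other lectin higher and 1 lower and 0 induced genes or factors lower. With each lymphoma left out in turn, other lectins had 3 to 5 higher and 1 to 3 lower calls, and induced genes and factors had 1 to 2 lower calls. Alternatives could not be run for Clec12a.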
